A study of Mus musculus with 9 samples.

Results

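Rod barcodes are the droplet barcodes of the sorted retinal libraries that carried more transcripts of rod photoreceptor genes than of myeloid genes, whether from whole rods or from fragments of them. They were chosen by their own counts of unique molecular identifiers (UMIs, each standing for one captured transcript). A barcode was counted only in the library where its UMI total was highest, and kept there if 100 or more genes were detected and mitochondrial genes made up under 10% of its UMIs. It was a rod barcode if it also had at least 5 UMIs summed over Gnat1, Pde6g, Gngt1, Pdc, Rom1, Prph2, Rcvrn and Nrl, and more of these than of the myeloid genes Ctss, Fcer1g, Laptm5 and Tyrobp. Of 1155 kept barcodes, among 1365 different ones in the files, 97 met this rule. Since they were selected on these counts, the levels of the rule's own genes are given as a description.

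The retinas came from adult female mice of genotype Arr1-/-, without visual arrestin, that had been bred in constant darkness. The mice stayed in darkness (day 0) or were kept in constant room light of about 200 lux for 7 or 20 days. Live cells positive for CD45 and CD11b, surface proteins of myeloid cells, were sorted, and 3 libraries were made for each day by 10x Genomics 3′ single-cell sequencing. All 9 libraries share the genotype, with no wild-type animals among them. The paper counts mice and retinas per time point, and the sources used here do not say how they were divided among the libraries. Whether libraries of the same day share mice is therefore not known, and p-values measure the spread between libraries only. Photoreceptors carry neither surface protein, so the rod barcodes are what passed the gate and not a sample of the retina's rods, and the authors set photoreceptor profiles aside in their own analysis.

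Rods are the photoreceptors of dim-light vision. Their light-absorbing receptor activates the G protein transducin, which releases phosphodiesterase 6 from its inhibitory subunit. The enzyme lowers cyclic GMP and closes the cation channel of the outer segment. A receptor kinase and arrestin end the response, and rods without arrestin degenerate in constant light.

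Sag, the gene of visual arrestin (chr1:87803680-87845158, plus strand, mm10), was nearly absent from every library. The sources used here do not say which exons the null allele lacks, so the 3′ tags check the genotype label only in part. Over all listed barcodes the day 0 libraries held 2, 1 and 1 Sag UMIs, the day 7 libraries 2, 0 and 0, and the day 20 libraries 1, 2 and 2. Within rod barcodes the only Sag UMI lay in day 20 replicate 3. The 0 UMIs among the 103951 of the day 0 rod barcodes allow a level of up to 28.9 CPM (UMI counts per 1000000 UMIs of the same barcodes), counting error only.

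The upstream sequences of Sag and of Guca1a, which encodes the guanylate cyclase activator GCAP1, are shown because one is the gene targeted in these mice and the other was among the abundant rod transcripts outside the rule. Both are the 250 bases before the RefSeq transcription start in GRCm38.p6, the same build as mm10, at chr1:87803430-87803679 (plus strand) and chr17:47400607-47400856 (minus strand), and neither overlapped an annotated exon. Capitals mark TAATCC or its reverse complement GGATTA, the core bound by the photoreceptor factor CRX, and TGCTGA or its reverse complement TCAGCA, a core of the element bound by NRL.
Sag: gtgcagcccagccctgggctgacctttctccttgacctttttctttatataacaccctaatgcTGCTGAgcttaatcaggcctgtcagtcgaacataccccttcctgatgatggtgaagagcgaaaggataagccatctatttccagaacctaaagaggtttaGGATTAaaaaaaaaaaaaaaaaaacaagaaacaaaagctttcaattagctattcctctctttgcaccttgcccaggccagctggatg
Guca1a: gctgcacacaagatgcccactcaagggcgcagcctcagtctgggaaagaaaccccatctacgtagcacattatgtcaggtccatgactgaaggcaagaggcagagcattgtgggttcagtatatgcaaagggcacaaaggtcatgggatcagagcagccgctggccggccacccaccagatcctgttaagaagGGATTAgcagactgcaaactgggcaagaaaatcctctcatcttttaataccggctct

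Of the 23 genes in the 2 rod phototransduction lists, 16 had a promoter in the RefSeq table. The CRX core lay within 250 bases of the start in 7 of them, against 6.25% of 32851 promoters of all genes, and the NRL core in 3, against 16.1%. Both sequences printed hold the CRX core, so they do not stand for all 16. The promoter of Gnb1, a more abundant gene outside the rule, holds neither core and is not printed. A match is a description of letters and not of binding.

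Rod barcodes were frequent before light and rare after it. The day 0 libraries held 30 of 153, 10 of 150 and 42 of 133 kept barcodes as rods. The day 7 libraries held 6 of 231, 2 of 110 and 1 of 46, and the day 20 libraries 3 of 128, 1 of 143 and 2 of 61. Every day 0 library had a larger share than every light-exposed library, although day 0 replicate 2, at 6.67%, was far below the other day 0 libraries, at 19.6% and 31.6%. The shares averaged 19.3% ± 12.5 (SD, n = 3) in darkness, 2.20% ± 0.390 after 7 days and 2.11% ± 1.31 after 20 days.

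**Figure D1:**
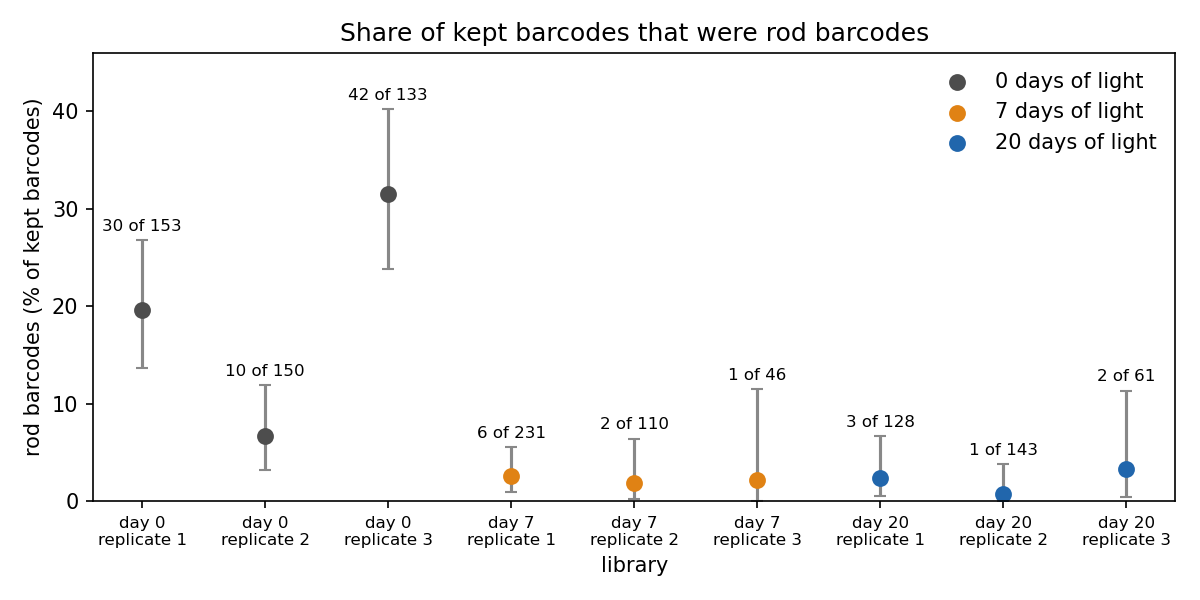
Rod barcodes as a percentage of kept barcodes (vertical axis) in each of the 9 libraries (horizontal axis), with the counts above each point and exact (Clopper-Pearson) 95% intervals as bars. The 3 day 0 libraries lie between 6.67% and 31.6%, and the 6 libraries after light between 0.699% and 3.28%.

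The plot of rod shares shows that the counting intervals of day 0 replicate 2 (3.24% to 11.9%) and of all 6 light-exposed libraries overlapped, so the comparison rests on the order of all 9 libraries. At days 7 and 20 together the mean share was 2.15%, a difference from day 0 of −17.1 percentage points (two-sided exact permutation test over libraries, p = 0.0119, the smallest that the 84 splits can give, and 0.107 after Benjamini-Hochberg adjustment over the 9 permutation tests made here). Each light day against day 0 gave p = 0.1, the smallest possible for 3 against 3 libraries in an exact permutation test. Day 20 and day 7 differed by 0.0893 percentage points (exact permutation p = 0.9). The rod barcodes were already known to lie mainly at day 0 when the rule was written, so this test is not independent support. The number of other kept barcodes per library was 118.0 ± 24.9 at day 0 and 117 ± 64.8 after light (SD, n = 3 and 6). A loss of rods from the retina cannot be told apart here from a smaller share of rods passing the gate. More myeloid cells per retina would also lower the share, and the paper reports a rise in CD45-positive cells during degeneration. The barcodes of a library do not count the cells of a retina, so this cannot be told apart either.

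Measured by RNA, rod barcodes held 16.7%, 3.62% and 38.6% of the kept UMIs of the day 0 libraries. They held 4.74%, 0.673% and 15.8% at day 7 and 2.81%, 0.918% and 4.29% at day 20. The groups overlapped, with day 0 replicate 2 below day 7 replicates 1 and 3 and day 20 replicate 3, and a single barcode of 5875 UMIs, with more bipolar cell than rod UMIs, made up the 15.8% of day 7 replicate 3. The mean share of UMIs was 19.7% at day 0 and 4.87% after light, a difference of −14.8 percentage points (two-sided exact permutation test over 9 libraries, p = 0.0595). Without day 0 replicate 3 this difference was −5.30 (exact permutation p = 0.321), and without day 0 replicate 2 it was −22.8 (p = 0.0357, exact permutation). Of the 27728 UMIs of rod barcodes after light, 16384 lay in the 6 barcodes in which another retinal or lens list exceeded the rod genes. At day 0 such barcodes held 14022 of 103951 UMIs. Without them on any day the difference was −15.6 (exact permutation p = 0.0119). This restriction was chosen after the values were seen. It also removes a larger part of the rod barcodes' UMIs after light than at day 0, so this p is not independent support.

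At the median, rod barcodes held 1060.0 UMIs and the other kept barcodes 629, although rod barcodes were the shallower ones in day 0 replicate 2 (723 against 764) and day 7 replicate 2 (382 against 771). At day 0 they held 181 UMIs at the lowest, 1002 at the median and 10060 at the highest, with a median of 563 detected genes. The 15 barcodes after light held 194, 1444 and 5875 UMIs, with a median of 759 genes. The median per library was 1091, 723 and 1032 UMIs at day 0, 1730 in day 7 replicate 1 and 977.0 in day 20 replicate 1, the only light-exposed libraries with 3 or more rod barcodes. The mean of these medians was 405 UMIs higher after light (exact permutation p = 0.4 with 3 against 2 libraries, which cannot give a p below 0.1). Without day 7 replicate 1 this difference was 28.8 UMIs, and without day 20 replicate 1 it was 781.

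The label was checked against marker genes. Of the 97 barcodes, 69 had a UMI of all 5 markers Gnat1, Pde6g, Gngt1, Pdc and Rcvrn, and 12 had 4 of them, which the rule favours. Of the 97, 13 held more UMIs of another retinal, lens, vessel or blood list than of the 8 rod genes, 7 of 82 at day 0 and 6 of 15 after light. The microglia or the macrophage and MHCII list exceeded the rod genes in 7 barcodes at day 0 and 6 after light, and 5 and 1 of these were not among the 13. For these 19 barcodes the data go against the rod label.

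In the 3 deepest barcodes after light another retinal or lens list exceeded the rod genes. In day 7 replicate 1 the deepest barcode held 2445 UMIs of lens genes, with 784 of the α-crystallin gene Cryaa, among 4093, and 7 rod UMIs. The next held 92 UMIs of cone genes, 54 of them Arr3, the cone arrestin gene, and 16 rod UMIs. The only barcode of day 7 replicate 3 held 66 UMIs of bipolar cell genes, led by Pcp2 and Gng13, and 20 rod UMIs.

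The remaining retinal exceptions after light rested on few UMIs. A day 7 replicate 2 barcode and a day 20 replicate 1 barcode held 17 and 9 cone UMIs against 7 and 5 rod UMIs. A day 20 replicate 3 barcode held 10 UMIs of Müller glia genes against 9. At day 0 the retinal exceptions were 4 barcodes with more cone UMIs (20, 109, 50 and 58 against 8, 34, 23 and 18) and 3 with more Müller glia UMIs (225, 31 and 17 against 32, 5 and 9). Of these 7, 6 lay in day 0 replicate 3.

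**Figure D2:**
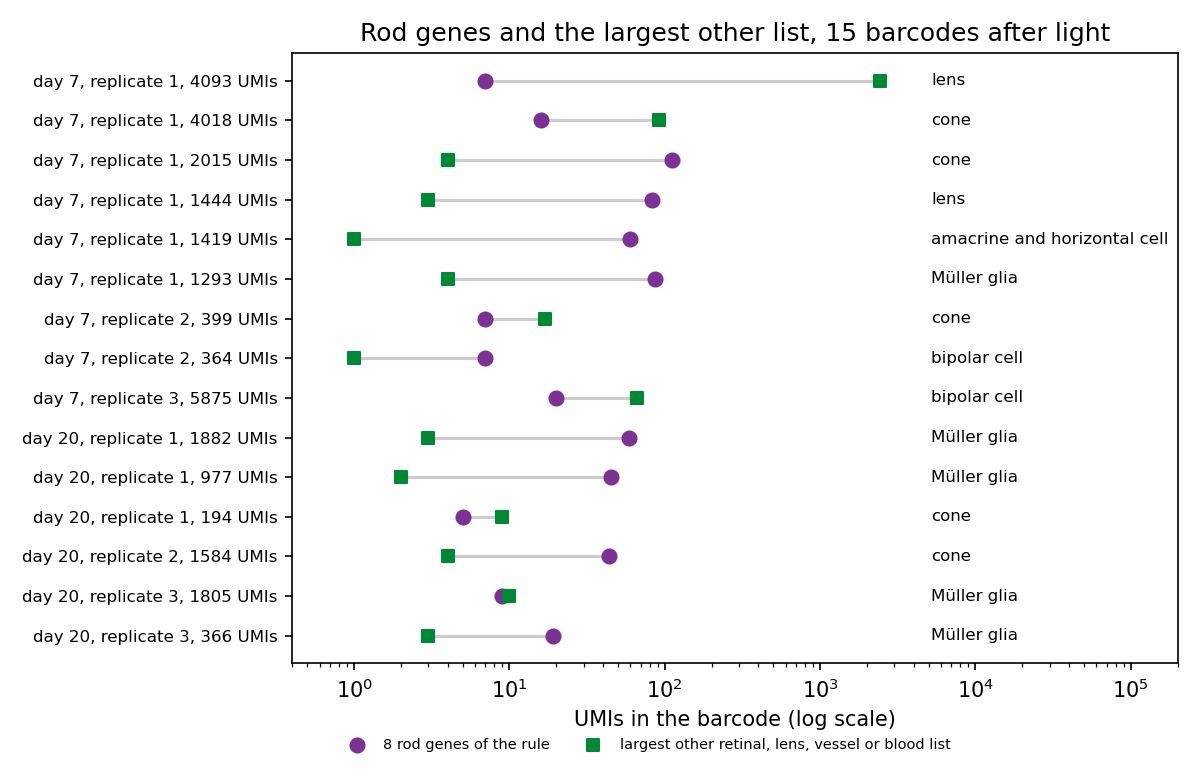
UMIs of the 8 rod genes (circles) and of the largest other retinal, lens, vessel or blood list (squares, named at right) in each of the 15 rod barcodes after light, on a log axis. In 6 barcodes the square lies to the right of the circle, and in the lens-led barcode of day 7 replicate 1 the values are 2445 against 7.

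The plot of the 15 barcodes shows 4 in day 7 replicate 1 and 2 in day 20 replicate 1 with 45 to 112 rod UMIs and at most 4 of any other list drawn. The same 6 barcodes held 9 to 35 UMIs of the macrophage and MHCII list and 5 to 15 of the microglia list, which the plot leaves out. Without the 13 retinal and lens exceptions, 84 barcodes remained, 75 at day 0 and 9 after light, and the mean share was 17.6% at day 0 and 1.09% after light (exact permutation p = 0.0119). Without all 19, 70 barcodes at day 0 and 8 after light remained, at mean shares of 16.4% and 0.939% (exact permutation p = 0.0119). These restrictions were chosen after the values were seen. No doublet caller was run, and whether a barcode with several lists held several cells was not tested.

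Among the photoreceptor lists, those of phototransduction had the highest summed levels in day 0 rod barcodes. The 8 genes of the rule made up 70684, 75815 and 43974 CPM in the rod barcodes of day 0 replicates 1, 2 and 3, and 3362, 679.5 and 3772 CPM in the other kept barcodes of the same libraries. Since one tag is counted for each molecule, such levels do not scale with gene length. Every comparison of rod with other barcodes is a description without a test, because the rule chose one against the other.

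Among genes of the rule, Gngt1, the transducin γ subunit (chr6:3993792-3997436, plus strand, mm10), was the most abundant, at 16563 CPM ± 6017. Pde6g, the inhibitory subunit of phosphodiesterase 6, stood at 11664 ± 2647 and Rom1, an outer segment disc protein, at 9346 ± 2674 (SD, n = 3 libraries). Gnat1, the transducin α subunit, reached 7258 ± 1590.5 and had the smallest ratio to the other barcodes, 8.77, because it was also the rod gene of the rule with the most UMIs there.

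The rest of the rule's genes lay between these and Nrl. Prph2, the partner of Rom1 in disc rims, stood at 6485 CPM ± 1066, Pdc, phosducin, at 4884 ± 1209.9, and Rcvrn, recoverin, at 4709 ± 1963. Nrl, the transcription factor that sets rod identity, was lowest at 2582 ± 1167 (SD, n = 3).

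The 15 phototransduction genes outside the rule summed to 66388 CPM ± 10598, about as much as the 8 of the rule at 63491 ± 17096 (SD, n = 3), and all but Sag were seen at day 0. Gnb1, the transducin β subunit, was at 10899 ± 2362. Cnga1, the channel subunit that light closes, was at 2044 ± 585, 88.5 times the level of other barcodes, and Slc24a1, the outer segment sodium-calcium exchanger, at 1858 ± 863. The calcium sensors Guca1a and Guca1b were at 2381 ± 435 and 2677 ± 361. Pde6a and Pde6b, the catalytic subunits of phosphodiesterase 6, stood near each other at 1252 ± 604 and 1377 ± 340.

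Other photoreceptor machinery was present in all day 0 libraries. The outer segment and cilium list stood at 15825 CPM ± 1733, against 818 ± 586 in other barcodes, led by Unc119, a carrier of lipid-modified transducin, at 4906 ± 945, with Tulp1 at 2313 ± 364 and Aipl1 at 1293 ± 468. The synapse list was at 4102 ± 325 against 248 ± 124, with Cplx4, Snap25, Stx3 and Syp between 428 and 855. The transcription factor list was at 2400.5 ± 750.2 against 169.8 ± 97.7, with the rod factor Nr2e3 at 819 ± 492 and Crx at 461 ± 148 (SD, n = 3).

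Metabolic and stress genes differed less. The glycolysis list was 5.51 times as high in rod barcodes (24874 CPM ± 2898 against 4518 ± 1118), with Pkm at 5034 ± 1019.9, Aldoa at 4439 ± 507, Gapdh at 3918 ± 1455 and Eno1 at 3263 ± 615. The heat shock list was nearly level, at 4655 ± 653 against 4567 ± 548, yet within it Hsp90aa1 was 7.32 times as high in rod barcodes and Hspa8, Hsp90ab1 and Dnajb1 were lower. The immediate early list was lower, at 11119 ± 8654 against 36102 ± 2429.6. In rod barcodes it stood at 6053, 6192 and 21111 in day 0 replicates 1, 2 and 3, and 2 barcodes of the last held 982 of its 1302 immediate early UMIs. One, with 636, was the barcode of mast cell proteases named among the genes outside the lists, and the other, with 346, held more Müller glia than rod UMIs. Without these 2 the value was 6422. The injury response list, with Mt1, Sqstm1, Socs3 and Mt2 as its most counted genes, was also lower, at 734 ± 432 against 2505 ± 364 (SD, n = 3).

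**Figure D3:**
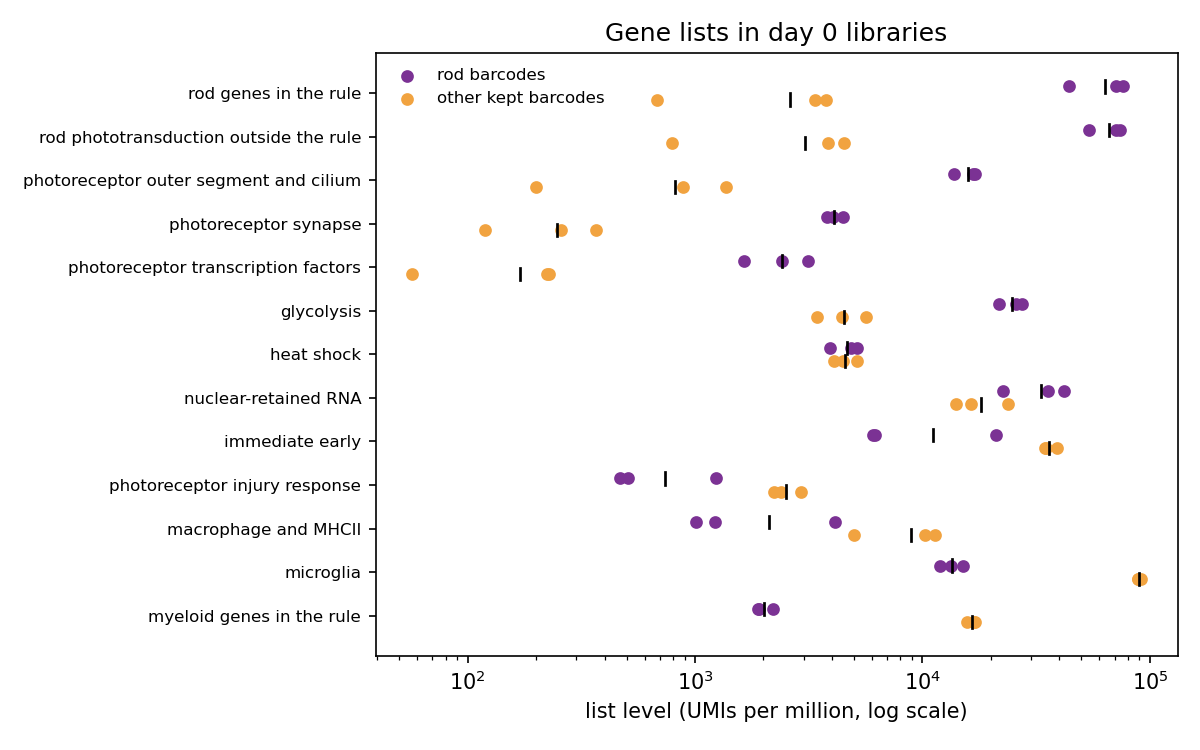
Summed level of 13 gene lists in CPM (log axis) in the rod barcodes and the other kept barcodes of each day 0 library (points), with the mean of the 3 libraries as a black bar. The 5 photoreceptor lists and glycolysis lie higher in rod barcodes and the myeloid, microglia, macrophage, injury response and immediate early lists lie lower, without overlap between both kinds of barcode.

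The plot of day 0 lists also shows myeloid transcripts inside rod barcodes. The 4 myeloid genes of the rule summed to 2007 CPM ± 178 in them and 16496 ± 752 in other barcodes. The microglia list reached 13476 CPM ± 1617 in them and 89414 ± 1795 in other barcodes, 6.64 times as much (SD, n = 3). Its most abundant gene, Cst3, which encodes cystatin C, was 5.59 times lower in rod barcodes, and the complement genes C1qa and C1qb were 9.27 and 9.04 times lower. The macrophage and MHCII list was at 2123 ± 1746 against 8888 ± 3411, and its H2-Ab1 had 0 UMIs in day 0 rod barcodes. Of the 97 rod barcodes, 23 had no UMI of the 4 myeloid genes of the rule, and the part of free RNA or attached cells in the rest was not tested.

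Lists of other cell types varied between libraries. The cone list, at 2220.2 CPM ± 2703 at day 0, ranged from 253 to 5302 between libraries, and the Müller glia list from 379 to 5335, with the highest value of both in day 0 replicate 3. Outside the exceptions that library still held 2169 CPM of cone genes, with 41 and 29 UMIs in 2 barcodes of 44 and 130 rod UMIs, and 1084 CPM of Müller glia genes. The bipolar list stood at 344 ± 151 and the lens list at 459 ± 323, while other barcodes held 114 ± 87.4 and 3351 ± 4912. The amacrine and horizontal list was at 37.8 ± 65.5, the ganglion cell list at 30.2 ± 29.2, the pigment epithelium list at 21.6 ± 37.4, the vessel list at 131 ± 138 and the erythrocyte list at 54.0 ± 93.6 (SD, n = 3). Lymphocyte and neutrophil lists had 0 UMIs at day 0 and 2 and 0 UMIs after light.

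Outside the lists, 15 genes with at least 20 UMIs in rod barcodes had the largest ratio to other barcodes. Rbp3, the retinoid carrier of the space around photoreceptors, was the most abundant of them at 2063 CPM ± 479, and Pcbp4 was at 745 ± 41.5 (SD, n = 3). Fabp12, a fatty acid binding protein gene, was 116 times as high as in the other day 0 barcodes, and Pex5l, AI847159, A930006I01Rik, Plk5, Nim1k, 1190005I06Rik, Nxnl1 and Tmem136 were below 500 CPM. Tpsb2, Cma1 and Serpinb1a were not rod genes here. Of their 24, 45 and 27 UMIs, 23, 45 and 26 lay in a single day 0 replicate 3 barcode with 16 rod UMIs, 13 myeloid UMIs and 636 immediate early UMIs, and Cma1 and Tpsb2 encode mast cell proteases.

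Malat1, a nuclear long non-coding RNA (chr19:5795690-5802672, minus strand, mm10), split the rod barcodes. Of the 75 day 0 barcodes outside the 13 retinal and lens exceptions, 53 had under 1% of their UMIs from Malat1, at most 0.764%, and 22 had between 1.63% and 16.6%. The cut at 1% was chosen after the values were seen, and 3 of the 75 lay between 0.5% and 2%. All 3 day 0 libraries held both kinds, with 8 of 29, 2 of 10 and 12 of 36 at or above the cut. Without the 5 of the 75 in which the microglia list exceeded the rod genes, 52 were below the cut and 18 at or above it. Among other kept barcodes of day 0, 68 of 354 were at or above it.

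**Figure D4:**
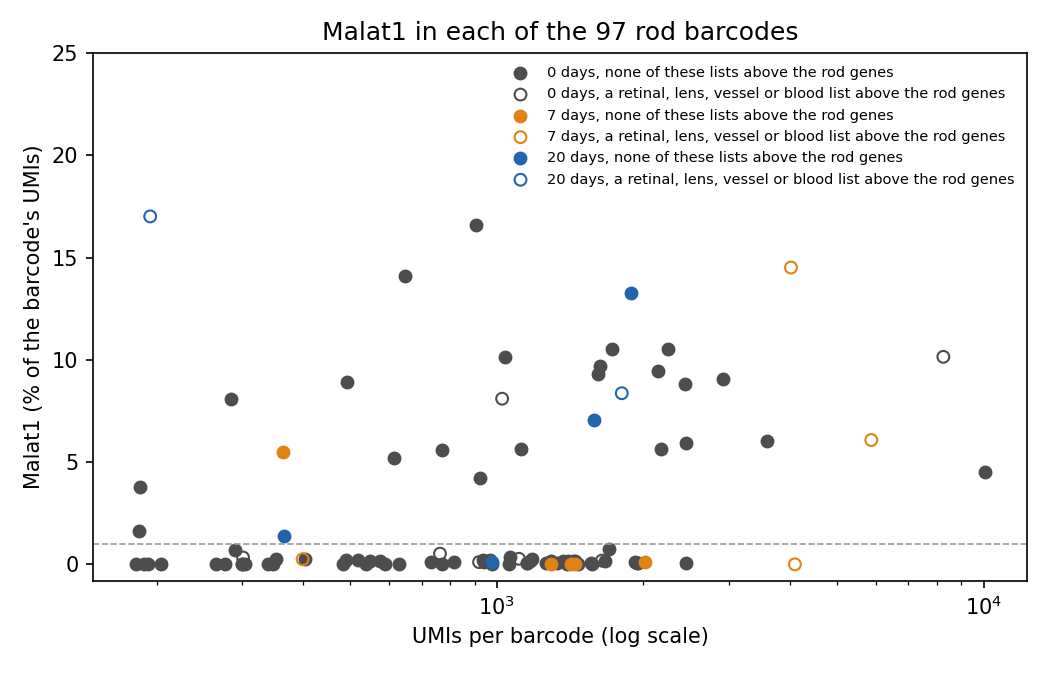
Malat1 as a percentage of a barcode's UMIs (vertical axis) against its UMI total (horizontal log axis) for the 97 rod barcodes, coloured by day, with open circles for barcodes that hold more UMIs of another retinal, lens, vessel or blood list than of the rod genes and a dashed line at 1%. Of the 97 points, 65 lie below the line and 32 at or above it, and both kinds are found from under 200 UMIs upwards.

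The plot of Malat1 shows the low barcodes over most of the depth range, with 181 to 2442 UMIs at day 0, while the high ones reached 10060. Rod genes of the rule made up 8.86%, 9.11% and 7.71% of the UMIs of Malat1-low barcodes in day 0 replicates 1, 2 and 3, and 4.11%, 2.74% and 3.39% of those of Malat1-high barcodes. Xist, another nuclear RNA, numbered 3 UMIs in the 53 low barcodes and 70 in the 22 high ones. The photoreceptor transcription factor list stood at 4606, 3688 and 3317 CPM in the Malat1-high barcodes of the 3 libraries and at 2236, 997 and 2598 in the low ones, but in day 0 replicate 3 most of its UMIs in high barcodes, 57, lay in the 1 barcode of 10060 UMIs, and in day 0 replicate 2 only 2 barcodes were high. The rod, outer segment, glycolysis and synapse genes were lower there, apart from the outer segment list in day 0 replicate 2 (16859.9 against 16622). The microglia list was higher in the Malat1-high barcodes, at 18343.5, 16859.9 and 12721 CPM against 13321, 12300.5 and 10885 in the low ones. The macrophage and MHCII, cone, bipolar and immediate early lists were also higher there in all 3 libraries, but on few UMIs or barcodes. In day 0 replicate 2 the high barcodes held only 1 cone, 2 bipolar and 2 macrophage and MHCII UMIs, the last at 1054 against 997 CPM. In day 0 replicate 3 the barcode of mast cell proteases was among the high ones and held 636 immediate early UMIs. The Müller glia list was not, with 0 against 499 CPM in day 0 replicate 2. Mitochondrial UMIs made up 4.39% of the low and 3.91% of the high barcodes' UMIs. These are shares of the same total, so a high Malat1 share lowers the others. Malat1 made up 7.34% of the UMIs of the high day 0 barcodes and 0.124% of those of the low ones. How much of the differences this share accounts for was not tested, because the division was drawn from the data. The list of nuclear-retained RNAs, nearly all of it Malat1, stood at 33296 CPM ± 9764 in rod and 18047 ± 5084 in other barcodes of day 0 (SD, n = 3). After light, 4 of the 9 barcodes outside those exceptions were at or above the cut.

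The genes of the rod barcodes were compared between days with caution. The planned test needed 5 rod barcodes in at least 2 libraries of a day, which only day 0 reached. A fit over all 9 libraries, with 1 to 42 rod barcodes each, was added after seeing this. It tested 68 genes, and 1 of them (1.47%) passed an adjusted p of 0.05 for days 7 and 20 against day 0 (edgeR quasi-likelihood test, Benjamini-Hochberg adjustment), with 11 at an unadjusted p under 0.05. DESeq2 also called 1.

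The gene was Apoe, which encodes apolipoprotein E, a lipid carrier made by macrophages and glia. Its level in rod barcodes was 1019, 632 and 3875 CPM at day 0, 17224, 20969.9 and 14638 at day 7, and 9499, 5051 and 15200.4 at day 20, without overlap between day 0 and light. The day 7 replicate 3 value was wholly that of the barcode with more bipolar than rod UMIs, and 28 of the 33 Apoe UMIs of day 20 replicate 3 lay in the barcode with more Müller glia UMIs. Outside the 13 retinal and lens exceptions Apoe stood at 1357 CPM in darkness, 14690.1 after 7 days and 8318 after 20 days, each summed over the day's barcodes. The log2 change over all rod barcodes was 3.22 (edgeR, adjusted p = 0.0310), and 3.20 without the exceptions (edgeR, adjusted p = 6.14e-10). The fit without the exceptions lacked day 7 replicate 3, which had no barcode left. Day 7 replicate 2 and day 20 replicates 2 and 3 entered that fit with 1 barcode each, so its small p is no firmer support. In the other kept barcodes Apoe was higher than in rod barcodes in all 9 libraries, at 2965 to 9214 CPM at day 0 and 36902 to 95533 after light, and the part of these cells' RNA in the rod barcodes was not tested. The macrophage and MHCII list that holds Apoe stood at 2934 CPM in rod barcodes of day 0 and 18501 after light, with Cd74 and H2-Ab1, genes of antigen presentation, at 23 and 18 UMIs after light. Over all days Apoe had 697 UMIs in rod barcodes and the next gene of this list, Lyz2, 36, so the list largely repeats Apoe. The deepest barcodes after light, led by lens, cone and bipolar genes, held 93, 109 and 103 UMIs of the list.

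Single libraries decided this call. Without day 0 replicate 1 or 2 the adjusted p of Apoe was 0.572 or 0.376, without day 7 replicate 2 it was 0.175, and without day 20 replicate 1, 2 or 3 it was 0.116, 0.0741 or 0.162 (edgeR). In these 6 fits its log2 change stayed between 2.52 and 3.24. It was 1.12 without a filter on low counts (edgeR, adjusted p = 0.559), 1.69 with every listing kept (edgeR, adjusted p = 0.208) and 4.58 without day 0 replicate 3 (edgeR, adjusted p = 0.0162). Without day 7 replicate 1, 21 genes passed, 19 of them lower after light. Several of the 19, such as Gnat1, Pde6g and Pdc, are genes whose counts chose the barcodes, so their calls are no test.

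Gnat1, as a description of a gene of the rule, stood at 8003, 8339.6 and 5432 CPM in the rod barcodes of day 0, 1680.4, 0 and 511 at day 7, and 2948, 3157 and 2764 at day 20. The 3 Gnat1 UMIs of day 7 replicate 3 lay in the barcode with more bipolar UMIs, and the barcodes of 4093 and 4018 UMIs in day 7 replicate 1, with more lens and cone UMIs, held none. Outside the exceptions Gnat1 stood at 7361 CPM at day 0 and 3702 after light.

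Within the 84 barcodes outside the 13 retinal and lens exceptions, the rod genes of the rule summed to 62405 CPM at day 0 (exact Poisson interval 60783 to 64059, counting error only) and 45487 after light (41646 to 49586). The list outside the rule stood at 69911 (68193 to 71661) and 48219 (44263 to 52435), and glycolysis at 23729.8 (22734 to 24758) and 12606 (10624 to 14849). The outer segment and cilium list was at 16702 (15868 to 17569) and 15338 (13144 to 17795), and the synapse list at 4403 (3980.4 to 4859) and 4231 (3119.8 to 5610.1). These are sums over 75 and 9 barcodes, and the 9 come from 5 libraries, so the differences were not tested against the spread between libraries.

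In 5 of the 6 light-exposed libraries most listed rod RNA stood under barcodes that had more UMIs in another library. Of the 97 rod barcodes, 29 were listed in 1 library, 68 in more than 1, and 28 in all 9. The 68 had 431 repeat listings, and the largest repeat of each carried 22.1% as many UMIs as its first listing at the median (5th to 95th percentile, 16.2% to 30.9%). Barcodes listed once had a median of 304 UMIs and the others 1409.

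**Figure D5:**
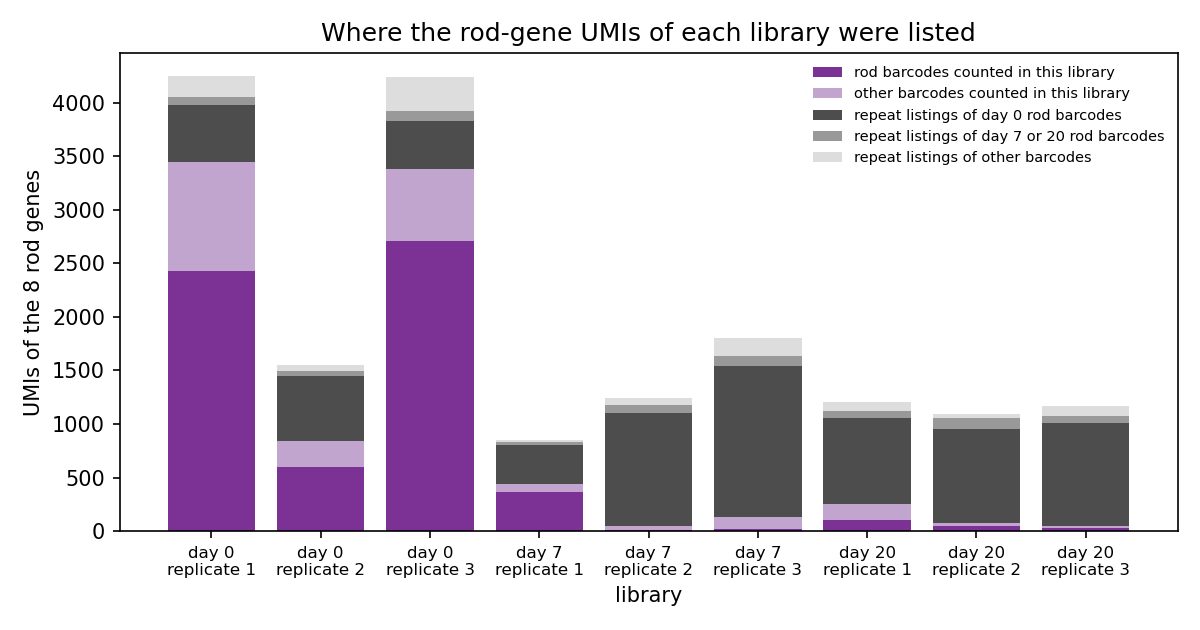
UMIs of the 8 rod genes (vertical axis) in each of the 9 libraries as deposited, stacked by whether the barcode was counted in that library or listed there again. In 5 of the 6 light-exposed libraries repeat listings of day 0 rod barcodes make up 65.9% to 84.7% of the bar, and in day 7 replicate 1 they make up 42.8%.

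The plot of listings gives the rod-gene UMIs as 4250, 1551 and 4236 at day 0, 851, 1244 and 1802 at day 7, and 1210, 1091 and 1167 at day 20. Rod barcodes counted in the library itself held 57.2%, 38.7% and 64.0% of these at day 0. They held 42.9%, 1.13% and 1.11% at day 7 and 9.01%, 4.03% and 2.40% at day 20. With every listing kept, the rule found 436 barcodes, 272 of them in light-exposed libraries, and 220 of these 272 were repeats of day 0 rod barcodes. The share of rods was then 11.7% at day 0 and 8.78% after light (two-sided exact permutation p = 0.0714). With barcodes listed in 1 library only, it was 12.5% and 1.73% (exact permutation p = 0.0119).

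Rod RNA was also found outside the rod barcodes. The 8 rod genes stood at 3362, 679.5 and 3772 CPM in the other kept barcodes of the day 0 libraries, and at 117 to 958 CPM after light. A further 61 kept barcodes had at least 5 rod UMIs but no more of them than of myeloid UMIs, 57 of them at day 0, 0 at day 7 and 4 at day 20, and their medians were 7 rod and 56 myeloid UMIs. Another 32 barcodes met the rule but for the mitochondrial limit, 26 at day 0 and 3 at each light day, with a median of 14.2% mitochondrial UMIs.

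Some barcodes lay close to the limits of the rule. Just inside it, 4 had 5 rod UMIs, with a median of 239 UMIs in all, 2 had 1 or 2 rod UMIs more than myeloid UMIs, 5 had 9% to 10% mitochondrial UMIs and 5 had 100 to 150 detected genes. Just outside it, 3 had 4 rod UMIs, 4 had 10% to 11% mitochondrial UMIs and 1 had under 100 detected genes.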

How the data were processed

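The authors ran Cell Ranger (mm10, version not given in the sources used here) and deposited, for each of 9 libraries, a table of raw UMI counts per gene and barcode without normalization. Libraries held 435 to 681 barcodes and 247290 to 441678 UMIs. Sample titles give time in hours and the treatment labels in days, and days were used. From these counts each barcode was assigned to the library with its highest total, the rule was applied, and counts were summed over rod barcodes or scaled to CPM. Shares and depths were compared by two-sided exact permutation over libraries (Python 3.11.15, SciPy 1.17.1). The planned gene test, on libraries with at least 5 rod barcodes, could not be fitted, so summed counts of all 9 libraries were fitted with edgeR 4.0.16 (quasi-likelihood, TMM, filterByExpr) and DESeq2 1.42.0 in R 4.3.3, with Benjamini-Hochberg adjustment at 0.05. The fit was tested on simulated data of 85 tested genes for the same contrast, where 15 of 27 genes changed 4-fold were found and 0 others. The simulated counts used the day 0 means, the real library totals and a fixed spread not taken from the data. They do not cover the mixed barcodes of the libraries after light, so false calls there were not measured. The 24 gene lists came with 3 genes not in the files. Named genes were those of the rule, the 4 most counted of each list, the 15 outside the lists with the largest ratio and at least 20 UMIs, those past the test with libraries that did not overlap, and Sag. Some genes that this rule names are not reported here. Other genes in the text were chosen after their values were seen. The members and lists were chosen with earlier results of these data known. Positions come from GENCODE M21 and promoters from RefSeq (GRCm38.p6). Alternatives were the limits of the rule, every listing kept, barcodes listed once, other normalizations, each library left out and the replicate number as a block.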

Additional observations from a re-analysis of the deposited data

How the results depend on the processing

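The lower share of rod barcodes after light kept its direction and its p under 0.05 in 18 of 19 alternatives. With every listing kept, the difference was −2.96 percentage points (exact permutation p = 0.0714). Leaving out 1 library gave −23.4 to −11.0. The lower share of UMIs passed 0.05 (exact permutation) with no mitochondrial limit (−16.4), 10 rod UMIs (−15.1), 3 times as many rod as myeloid UMIs (−12.3), barcodes listed once (−10.3), without barcodes exceeded by another retinal, lens, vessel or blood list (−15.6) and also without those exceeded by the microglia or macrophage list (−14.2). The restrictions by other lists were chosen after the values were seen. For the share of UMIs, leaving out 1 library gave −22.8 to −5.30. The difference in depth passed in none of 9 alternatives (28.8 to 781 UMIs). The added gene test called 3 genes without TMM (Apoe, Pkm and Gnat1, a gene of the rule), 2 without a filter (Opn1sw and Agpat3), 9 with every listing kept, all lower after light, 2 without barcodes exceeded by another retinal or lens list (Apoe and Aldoa), and 0 to 21 on leaving out 1 library. Apoe kept its direction in all 17 alternatives, with log2 changes of 1.12 to 4.58 and adjusted p between 6.14e-10 and 0.572. The lowest came from the fit without barcodes exceeded by another retinal or lens list, which had none left in day 7 replicate 3. The causes were not tested. The planned gene test could not be fitted at a minimum of 3, 5 or 10 rod barcodes per library, since day 7 and day 20 each had at most 1 such library.

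Libraries with the same replicate number did not all deviate together (correlations of deviations from day means over 711 genes in the other barcodes, −0.137 to 0.216, above 0.1 in 3 of 9 pairs), and the labels give no shared animal or batch, so the numbers were not taken as pairs. With the replicate number as a block, the share of rod barcodes differed by −17.1 and the share of UMIs by −14.8 percentage points, each with an exact permutation p of 0.0370, the smallest that 27 arrangements allow, the depth by 405 UMIs (p = 0.667, exact permutation), and the gene test called 4 genes (among them Apoe, Malat1 and Xist).

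Depth limits the comparisons after light, which rest on 15 barcodes and 27728 UMIs, or 9 barcodes and 11344 UMIs outside the retinal and lens exceptions.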
